A study of Homo sapiens with 13 samples.

Results

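Chromosome 17 was described gene by gene along both of its arms, from the polyadenylated 3′ ends mapped to it. All 3′ ends, here called isoforms, of genes on chromosome 17 were taken, leaving out POLR2A and the HOXB genes, and the reads of each gene were summed and ordered by the position of its stop codon. This gave 13389 isoforms of 884 genes, out of 211765 isoforms and 14576 genes in all. Within them a stretch of the long arm, chr17:46627696-48458300 (hg19), held 408 isoforms of 28 genes and was set against the other 856 genes. The stretch had been chosen for its read totals in the comparison described here, so the differences in read totals are given as a description, without p-values.

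The study compared HEK293 Flp-in T-REx cells, a human embryonic kidney line, carrying an integrated pcDNA5 plasmid for an α-amanitin resistant (Amr) form of Rpb1, the largest subunit of RNA polymerase II (Pol II). The plasmid encoded either wild-type (WT) Rpb1 or the slow R749H mutant, in both cases with an Avitag, and both lines were kept in hygromycin and blasticidin. In both groups Rpb1 was induced with doxycycline at 2 µg/ml for 24 hr per the sample labels (the study's methods give a shorter induction), and the endogenous Pol II was then inhibited with α-amanitin at 2.5 µg/ml for 42 hr. Poly(A) RNA was measured by 3′ READS in 4 R749H and 5 wild-type libraries, and 4 eNETseq libraries are not analysed here. Each mutation was present in its own line, so a difference between the lines and an effect of the mutation cannot be told apart, and whether a line is 1 clone is not given in the sources used here. In these bulk samples fewer cells of a type and less RNA per cell cannot be told apart either.

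The end of an mRNA is made by cleavage of the nascent transcript and addition of a poly(A) tail, usually a short distance downstream of the hexamer AATAAA or its common variant ATTAAA. A single gene often has many such ends in its 3′ UTR. 3′ READS counts 1 read per captured end, so a gene's total does not grow with the length of its mRNA and genes can be compared directly. Chromosome 17 is rich in genes expressed in every cell, among them genes for ribosomal proteins, proteasome subunits, histone H3.3 and cytoplasmic γ-actin. Its long arm carries the HOXB cluster of homeobox genes, at the start of the stretch.

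The wild-type libraries held from 2479851 to 10135014 reads within 5 kb of a stop codon, and the R749H libraries from 3863468 to 6475987. R749H replicate 3 stood apart, because isoforms with a single read made up 6.60% of its isoforms and 30 to 36.2% in the other libraries. It also had the fewest isoforms on chromosome 17, 2606 against 4780 to 7573. Wild-type replicate 1 was the shallowest library and stood apart from the other wild-type libraries in several of the values below. The kidney line expressed VIM at 55.3 to 141.7 and KRT18 at 323 to 842 RPM (reads per 1000000 reads of the library after TMM scaling), whereas HBB, PTPRC and COL1A2, markers of other cell types, had 0 reads. POLR2A, left out of the set, was higher in R749H by 2.12 ± 0.23 (log2 difference ± SE), and its reads do not tell the mutant from the wild-type message, so they check no label. The position given as a gene's end held a stop codon in the reference for 953 of 954 chromosome 17 entries.

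The dominant 3′ ends of the stretch show which sites the read totals rest on. The 30 bases that end at the most used site are given for the 8 genes of the stretch that passed the threshold defined below, from the GRCh37 (hg19) reference on the strand of the gene, in lower case with AATAAA or ATTAAA in capitals. All lie in 3′ UTRs, downstream of the stop codon. PDK2 and SAMD14 are shown together because they converge: with these ends their last 58 nt (chr17:48188675-48188732) lie on opposite strands of the same DNA.
CALCOCO2 (chr17:46941211-46941240, + strand): taatttaaAATAAAccttcaatttatggtc
ATP5G1 (chr17:46973201-46973230, + strand): aagctttaccATTAAAcacaacgtttctct
SNF8 (chr17:47007759-47007788, - strand): gcaAATAAAcctgggcaattttgtttatac
DLX4 (chr17:48052293-48052322, + strand): ccagagATTAAAgtttgtacaaaacattgc
PDK2 (chr17:48188703-48188732, + strand): ttgaAATAAAttgagaactgcctccccttc
SAMD14 (chr17:48188675-48188704, - strand): AATAAAtccttatgatgtgccagtgaccag
MRPL27 (chr17:48445229-48445258, - strand): cagcgtcatgaacgcatgctatttagggac
EME1 (chr17:48458791-48458820, + strand): tagtttcAATAAAgcatttgtaccaatggc

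These ends lay between 78 nt downstream of the stop codon (SNF8) and 1582 nt (SAMD14). ATP5G1 used its end for 99.0% of its reads, whereas CALCOCO2, PDK2 and SNF8 used theirs for 28.5, 28.6 and 29.6%. MRPL27 had neither hexamer in the 30 bases. In the dominant ends of all 28 genes of the stretch, AATAAA was found in 53.6% and, where it was absent, ATTAAA in 17.9%. The same shares were 55.7 and 16.1% over the chromosome 17 set and 62.8 and 15.6% over all genes (14565 with an end that could be read). Only the strand of the gene was searched, and a match is no proof that a hexamer was used.

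Of the 884 genes, 602 passed the filter on low counts, 17 of them in the stretch. A gene was called where limma gave an adjusted p below 0.05 over all 9495 genes tested, which called 23.9% of them (10.9% as higher in R749H and 12.9% as lower). Every R749H library lay below every wild-type library in 10.1% of all genes tested and above in 9.72%. In the stretch, 16 of 17 genes had a log2 difference below 0, 8 were called lower and none higher, and 6 had groups that did not overlap. Since this contrast chose the stretch, nothing is read from those counts. RPM values are listed for R749H replicates 1 to 4 and wild-type replicates 1 to 5.

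The mitochondrial and metabolic genes of the stretch differed by unlike amounts. MRPL27, a protein of the large subunit of the mitochondrial ribosome, had 71.8, 42.7, 32.7 and 51.6 RPM in R749H and 189.7, 153, 166, 140.3 and 139 in wild type. Each R749H library had fewer reads than any wild-type library, and the log2 difference was -1.71 ± 0.21, or 3.27-fold. PDK2, a kinase that inhibits pyruvate dehydrogenase, had 8.87, 3.56, 0 and 3.23 RPM in R749H and 20.2, 16.1, 17.4, 16.7 and 15.2 in wild type. The groups were apart, but the size of the difference rested on the library without reads: -3.26 ± 0.86 with all libraries, -1.82 without R749H replicate 3, -4.02 without R749H replicate 1 and -2.04 by edgeR. ATP5G1, a subunit of the membrane ring of ATP synthase, had 249.7, 231, 223 and 279 RPM in R749H and 276, 381, 342, 349 and 384 in wild type. It was lower by a smaller amount (-0.49 ± 0.16), the lowest wild-type library lay inside the R749H range, and it was not called when R749H replicate 2 or 3 or wild-type replicate 2, 3 or 4 was left out. PHB, prohibitin of the inner mitochondrial membrane, had 334, 334, 357 and 271 RPM in R749H and 206, 386, 233, 411 and 567 in wild type. Its R749H libraries all lay within the wild-type range (-0.06 ± 0.25).

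Genes of DNA repair, autophagy and membrane sorting were among the well-read genes of the stretch. EME1, a subunit of a structure-specific nuclease, had 45.6, 51.5, 57.0 and 33.9 RPM in R749H and 109, 123, 122, 123 and 76.8 in wild type. The groups did not overlap (-1.24 ± 0.20, 2.36-fold). CALCOCO2, an autophagy receptor with 67 isoforms, had 29.4, 22.2, 30.9 and 27.2 in R749H and 67.2, 62.0, 67.2, 60.1 and 55.4 in wild type. It showed the same separation (-1.19 ± 0.18, 2.28-fold). SNF8, a component of the ESCRT-II sorting complex, had 20.5, 11.2, 13.6 and 11.1 in R749H and 30.1, 28.8, 21.5, 30.4 and 32.2 in wild type. Its highest R749H library was just below its lowest wild-type library (-1.05 ± 0.23).

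The regulators of transcription and RNA were spread from no visible difference to a large one. KAT7, a histone acetyltransferase, had 86.6, 88.5, 98.0 and 123 RPM in R749H and 78.1, 139, 81.1, 147 and 158 in wild type. The ranges overlapped (-0.23 ± 0.23). KAT7 was not called, but it was called lower on the authors' scaling alone, without TMM factors (-0.58). DLX4, a homeobox gene, had 3.13, 4.93, 4.26 and 2.54 in R749H and 4.80, 9.19, 10.9, 10.9 and 8.22 in wild type, and was called lower (-1.21 ± 0.32) although wild-type replicate 1 fell inside the R749H range. With all libraries thinned to the depth of the smallest, DLX4 differed by -0.69 and was not called. IGF2BP1, an RNA-binding protein of mRNAs in the cytoplasm, had 3.13, 6.03, 0 and 9.68 in R749H and 2.88, 8.35, 4.89, 7.38 and 11.5 in wild type. Its ranges overlapped almost throughout, and its difference of -1.64 ± 0.95 rested on the library at 0: it was -0.13 without R749H replicate 3 and -0.59 by edgeR.

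SAMD14, whose tail faces that of PDK2, had 0.869, 1.10, 2.40 and 1.15 RPM in R749H and 2.56, 9.39, 8.64, 8.01 and 5.25 in wild type. Like PDK2 it had groups that did not overlap (-2.19 ± 0.45). Other genes of the stretch had low counts: UBE2Z, a ubiquitin-conjugating enzyme (-1.03 ± 0.39), NXPH3 (-1.501 ± 0.93, and -0.52 without R749H replicate 3), SLC35B1, a nucleotide sugar transporter family member (-0.65 ± 0.25), XYLT2, a xylosyltransferase of proteoglycan synthesis (-0.69 ± 0.34), and ITGA3, an integrin subunit (-0.06 ± 0.42). None of these 5 was called, although UBE2Z, SLC35B1 and XYLT2 were called when R749H replicate 3, wild-type replicate 2 and wild-type replicate 5, respectively, were left out. On the authors' scaling alone UBE2Z (-1.36), SLC35B1 (-0.99) and XYLT2 (-1.02) were called lower. With all libraries thinned to the depth of the smallest, SLC35B1 (-0.86) and XYLT2 (-1.14) were called too. FAM117A was the only tested gene of the stretch with a higher mean in R749H (12.6 ± 2.68 against 10.9 ± 3.03 RPM, SD, n = 4 and 5; 0.23 ± 0.26), and its ranges overlapped.

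**Figure D1:**
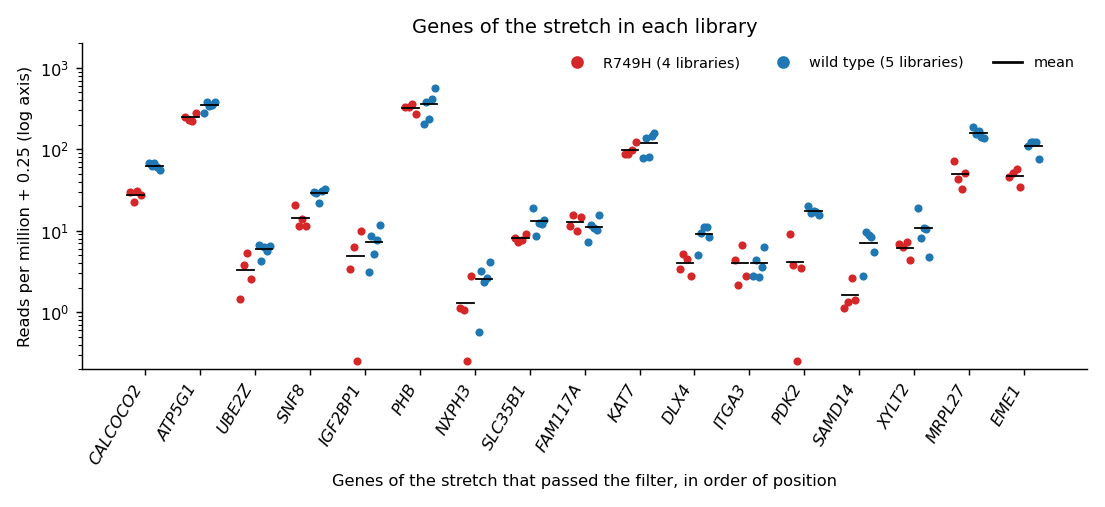
RPM plus 0.25, on a log axis, of the 17 genes of the stretch that passed the filter, in each of 4 R749H and 5 wild-type libraries, with the group mean as a bar. The R749H points lie wholly below the wild-type points for CALCOCO2, SNF8, PDK2, SAMD14, MRPL27 and EME1, and overlap them for the other genes.

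The 11 genes of the stretch that did not pass the filter held 1 to 59 reads each over all 9 libraries. They include COL1A1, a collagen of connective tissue (11 reads), DLX3 (2 reads), the hormone gene GIP (24 reads) and SPOP, a substrate adaptor of a ubiquitin ligase (59 reads). The tested genes just outside the stretch were also lower in R749H. SNX11, a sorting nexin upstream of the HOXB cluster, differed by -0.79 ± 0.27, and LRRC59, a ribosome-binding membrane protein next to EME1, by -0.55 ± 0.14. LRRC59 had 196 to 241 RPM in R749H and 312 to 334 in wild type. The 9 HOXB genes tested, which were left out of the set and lie in or beside the start of the stretch, had a median log2 difference of -1.12 and a range of -3.57 to -0.67.

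The median gene of the stretch differed by -1.05 on the log2 scale (fold 0.483) and the median gene of the other 585 tested genes by -0.40 (fold 0.756). The difference between these medians was -0.65. Taken per library against the wild-type libraries, stretch minus rest was -0.61, -0.42, -0.51 and -0.86 in R749H replicates 1 to 4 and -0.30, 0.11, -0.03, 0.10 and 0.14 in wild-type replicates 1 to 5. Every R749H library was below every wild-type library, and wild-type replicate 1 lay nearest to them. The stretch was chosen from these same libraries, so nothing is read from that separation. Without wild-type replicate 1 the stretch median was -1.03, and without R749H replicate 3 it was -0.88, with the rest at -0.41 and -0.33. The stretch took 0.0693 to 0.0835% of a library's reads in R749H and 0.119 to 0.163% in wild type.

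Lower values in R749H were not limited to the stretch and reached over the short arm and much of the long arm. The short arm was divided from the long arm at the longest run of unknown bases of the reference, chr17:22263007-25263006. On the short arm 144 of 173 tested genes were below 0, with a median log2 difference of -0.64, and on the long arm up to the gap described below 163 of 205 genes outside the stretch were below 0, with a median of -0.57. Over these 378 proximal genes, 149 (39.4%) were called lower and 17 (4.50%) higher, against 12.9 and 10.9% of all genes tested. The groups did not overlap in 121 genes (32.0%) with R749H below and 12 (3.17%) with R749H above. Over all genes tested these shares were 10.1 and 9.72%. Against this proximal part the stretch was 0.46 lower in the median (R749H -0.21 to -0.67, wild type -0.30 to 0.12 per library), and wild-type replicate 1, at -0.30, lay within the R749H range.

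**Figure D2:**
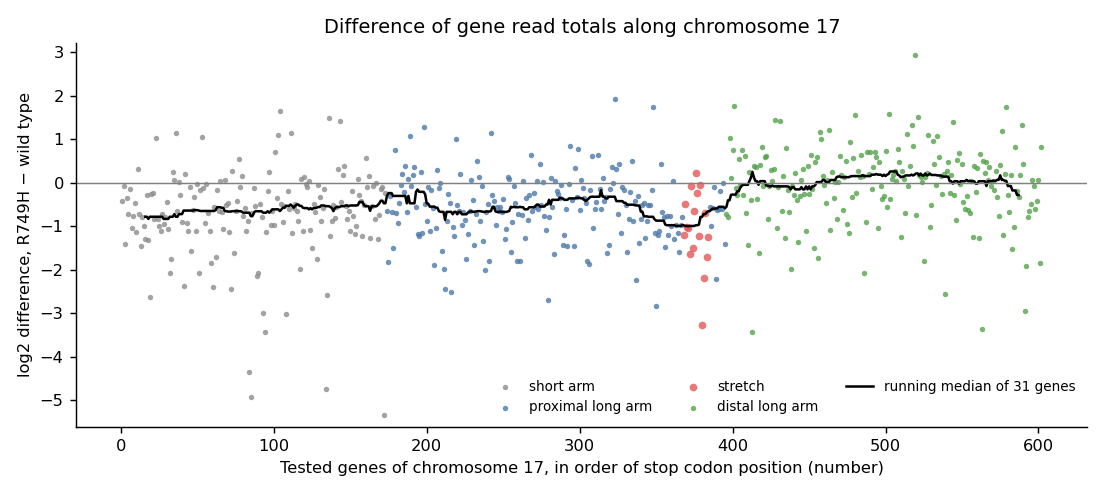
Log2 difference in gene read totals, R749H minus wild type, of the 602 tested genes in the order of their stop codons, coloured by part, with a running median of 31 genes. The line stays below 0 over the short arm and the proximal long arm, is low around the stretch, where the median of the 17 genes is -1.05, and lies near 0 over the distal long arm (median 0.06).

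Lower values were not the rule over the distal part of the long arm. The widest stretch of the long arm without a tested gene of the set was 3.664 Mb between the stop codons of UTP18 (position 49374350) and TOM1L1 (position 53037987). The chromosome was divided there after the values had been seen, so the division is a description. Beyond it, 207 distal genes had a median of 0.06, with 95 below 0. Of these 207 genes 29 (14.0%) were called lower and 33 (15.9%) higher, against 12.9 and 10.9% of all genes tested. The distal median minus the proximal median was 0.65. Per library this was 0.55, 0.67, 0.69 and 0.54 in R749H and -0.02, 0.04, 0.08, -0.01 and -0.11 in wild type. On the authors' scaling alone, which moved the median of all genes from -0.07 to -0.41, the distal median was -0.28 and the proximal one -0.94, so the sign of the distal median depends on the scaling.

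All 10 tested genes before the gap were below 0 (median -0.60), as were 5 of the 10 after it (median 0.04). UTP18, a ribosome biogenesis factor and the last gene before the gap, had 17.4, 10.7, 17 and 10.6 RPM in R749H and 26.9, 31.7, 43.2, 32.7 and 50.01 in wild type. Its groups did not overlap (-1.40 ± 0.24). The first genes after the gap were still lower: TOM1L1, an adaptor of endosomal sorting, by -0.72 ± 0.25, and COX11, an assembly factor of cytochrome c oxidase, by -0.79 ± 0.27, both without overlap. MMD, 3 tested genes further on, was higher without overlap (0.75 ± 0.24), and HLF, between them, differed by 0.12 ± 0.25. The gap and the last called genes of the run of lower values therefore do not lie at the same place.

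In windows of 2 Mb, each of the 21 proximal windows with at least 5 tested genes had a median below 0, from -1.03 to -0.24. The lowest of them, from 28 to 30 Mb (9 genes), lay outside the stretch. The window from 46 to 48 Mb, which holds part of the stretch, was at -0.98 (15 genes). Of 14 distal windows 5 had a median below 0, with a range of -0.33 to 0.25. The lowest distal window was the last, at the tip of the long arm from 80 Mb on (17 genes, -0.33). The median was near -0.59 on both strands of the proximal part (-0.57 for 186 genes on the + strand and -0.61 for 192 on the - strand). It was near 0.06 on both strands of the distal part (0.06 and 0.06 for 94 and 113 genes).

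The difference also varied with the level of a gene. R749H replicate 3 had few isoforms with a single read, as given above, and its part in this was not tested. Proximal genes with a mean below 10 RPM had a median of -0.85 (120 genes), those from 10 to 100 one of -0.55 (209 genes) and those with 100 or more one of -0.47 (49 genes). In the distal part the same classes had medians of -0.30 (68 genes), 0.06 (97 genes) and 0.27 (42 genes). At each level the distal median was the higher, and in the class of highest level 38 of 49 proximal and 10 of 42 distal genes were below 0.

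The parts took unequal shares of a library. The proximal part without the stretch took 2.17 to 2.48% of the reads in R749H and 3.64 to 4.31% in wild type. The distal part took 2.29 to 2.45% and 2.24 to 2.44%, ranges that overlapped almost throughout. The whole set took 4.68 to 4.94% in R749H and 6.21 to 6.67% in wild type. Its median log2 difference of -0.42 was the second lowest of 23 chromosomes, after chromosome 18 at -0.49, whereas the median over the genes of all other chromosomes was -0.05 and chromosome 20 was highest at 0.54.

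**Figure D3:**
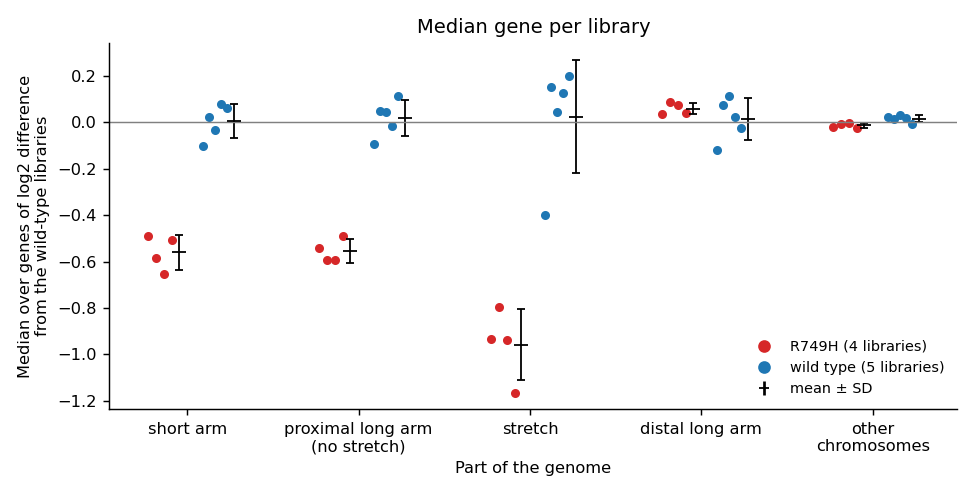
Median over genes of the log2 difference from the wild-type libraries, for each library (points) with mean ± SD of the 4 R749H and 5 wild-type libraries. R749H libraries lie at -0.49 to -0.65 on the short arm, -0.80 to -1.16 in the stretch and 0.04 to 0.09 on the distal long arm, and wild-type replicate 1 is the low wild-type point of the stretch (-0.40).

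**Figure D4:**
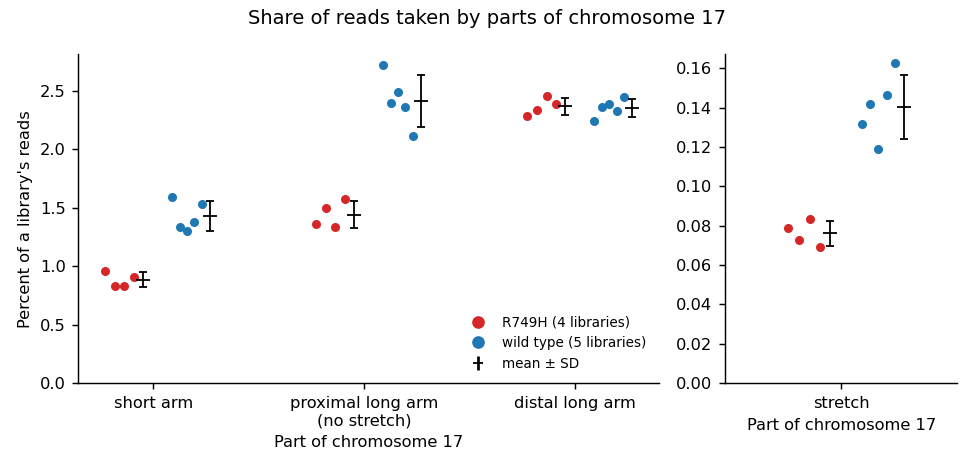
Percent of a library's reads on the short arm, the proximal long arm without the stretch, the distal long arm and (right, own axis) the stretch, with points for libraries and mean ± SD. The R749H and wild-type points are apart in 3 of these parts and overlap on the distal long arm.

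The genes of the general machinery were grouped by lists, and each list was split by the gap, with genes of the stretch counted as proximal. The counts stand beside those of all tested genes: 81.2% of the proximal genes outside the stretch were below 0, 39.4% were called lower and 4.50% higher, and 45.9% of the distal genes were below 0, 14.0% were called lower and 15.9% higher. A list near these shares is not set apart by its function. On the authors' scaling alone the medians of the proximal ribosomal list (-0.23) and of the distal splicing (-0.18), chromatin (-0.17), cytoskeleton (-0.18) and ubiquitin (-0.18) lists were below 0, the opposite of the signs given below, as were PSMC5, UBB, SRP68, MRPL38 and, in the stretch, FAM117A, none of which was called. Of 12 genes for transcription elongation, Mediator and initiation, all tested, the 10 proximal genes were below 0 (median -0.70, 5 called lower) and the 2 distal ones, SUPT4H1, a subunit of the elongation factor DSIF, and the Mediator subunit MED13, were above 0 (median 0.59, none called). CDK12, a kinase of the Pol II C-terminal domain, had 2.26, 3.29, 0.532 and 5.07 RPM in R749H and 14.7, 8.14, 7.01, 5.55 and 6.12 in wild type, without overlap (-1.81 ± 0.50). AATF, a transcription cofactor, was called lower (-0.68 ± 0.18) but not without R749H replicate 2 or 3, and MED24, a Mediator subunit, was not called (-0.29 ± 0.23). MED24 was called lower on the authors' scaling alone (-0.63). Of the proteasome subunits, 5 of 5 proximal ones were below 0 (1 called lower) and both distal ones above 0 (1 called higher). PSMD3, a proximal subunit of the regulatory particle, had 97.3 to 109 RPM in R749H and 131 to 222 in wild type (-0.86 ± 0.18). PSMC5, a distal ATPase subunit, had 625 to 991 and 616 to 683, with overlap (0.30 ± 0.16).

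Translation genes did not all follow the position. Of the translation factors, the 3 proximal ones were below 0 (median -0.69, 1 called lower) and the 1 distal one was above 0. The ribosomal protein genes given below departed from this. EIF1, an initiation factor that selects the start codon, had 3336, 4409.9, 3026 and 5644 RPM in R749H and 7044, 7291, 8763, 6559 and 5072 in wild type. It lies in the proximal part and was called lower (-0.78 ± 0.21), with R749H replicate 4 inside the wild-type range. EIF4A3, a distal helicase of the exon junction complex, was called higher (0.68 ± 0.22), but not when R749H replicate 2 or 3 or wild-type replicate 1, 2 or 3 was left out. On the authors' scaling alone EIF4A3 (0.34) and the distal genes DDX5 (0.29), ACTG1 (0.31) and DGKE (1.43), as well as TRPV2 of the short arm (1.09), were not called, although each is called higher here. The 5 proximal ribosomal protein genes, by contrast, had a median of 0.12 and a range of -0.07 to 0.13, and none of the 6 on the chromosome was called by limma with all libraries. RPL19 had 1120.2 to 1718 RPM in R749H and 1166 to 1680.4 in wild type (-0.07 ± 0.18). RPL38, the gene with the most reads of the set and distal, had 7952 to 9387 in R749H and 4016 to 7448 in wild type, without overlap but not called (0.49 ± 0.19). It was called higher without wild-type replicate 5 (0.57) and by DESeq2 (0.48), whereas RPL19 was called lower on the authors' scaling alone (-0.42). Reads of ribosomal protein genes, UBB, H3F3B and the neighbours NME1 and NME2 may be shared with near-identical copies, and these values are uncertain for that reason.

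The list of the mitochondrial ribosome and respiratory chain also holds other mitochondrial genes, among them PHB, SLC25A39, SLC25A11 and TIMM22. Of its 16 tested genes, 8 of 10 proximal ones were below 0 (median -0.32, 5 called lower and 1 higher), as were 4 of 6 distal ones (median -0.11, 1 called in each direction). MRPL38, the gene of this list with the most reads and distal, did not separate (623 ± 119.9 against 609 ± 111 RPM, SD, n = 4 and 5; 0.03 ± 0.19). In the list of splicing and mRNA processing genes 7 of 9 proximal members (median -0.56) and 2 of 8 distal members (median 0.16) were below 0. This list also holds genes of other functions, among them SRP68, SYNRG and ELAC2. DDX5, a distal RNA helicase, was higher in every R749H library (0.64 ± 0.19) and was not called without R749H replicate 3 or wild-type replicate 2 or 4, and SRP68, of the signal recognition particle, overlapped (0.26 ± 0.17).

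Among chromatin genes 8 of 11 proximal members were below 0 (median -0.53, 6 called lower and 2 higher) and 3 of 7 distal members (median 0.17, 2 called higher). H3F3B, which encodes the replication-independent histone H3.3, had 276, 428, 350.1 and 489 RPM in R749H and 111, 128, 132, 123 and 141 in wild type. It was higher 2.98-fold without overlap (1.57 ± 0.18). CBX2, a distal Polycomb protein, had overlapping groups (-0.25 ± 0.25). Genes of DNA replication, repair and the cell cycle were below 0 in 13 of 16 proximal cases (median -0.62, 8 called lower and 1 higher) and in 3 of 7 distal cases (median 0.41, 2 called higher). NME1, a nucleoside diphosphate kinase, was lower without overlap (987 ± 191 against 1469.6 ± 67.0 RPM, SD, n = 4 and 5; -0.59 ± 0.16) and was not called without R749H replicate 2 or 3, whereas its neighbour NME2 had overlapping groups (-0.01 ± 0.20).

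In the cytoskeleton list 9 of 10 proximal genes were below 0 (median -0.53, 3 called lower). ACTG1, the distal gene for cytoplasmic γ-actin, had 1375, 1157, 1029 and 1237 RPM in R749H and 976, 739, 871, 697 and 566 in wild type, and was higher without overlap (0.66 ± 0.18). ARHGDIA, next to the tip of the long arm, was not called (-0.34 ± 0.17) but was called lower (-0.47) without wild-type replicate 1. It was also called lower on the authors' scaling alone (-0.68). Of the genes of ubiquitin conjugation 4 of 5 proximal members were below 0 (median -0.93, 3 called lower) and 2 of 4 distal members (median 0.15, 1 called higher). UBB, which encodes a chain of ubiquitin units, was the exception on the proximal side and had overlapping groups (0.31 ± 0.24), and USP22, a deubiquitinase of the SAGA complex, was called lower (-0.73 ± 0.23) but not in 7 of the 9 fits that each left out a library.

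The largest differences outside the stretch lay mostly at low counts. On the short arm KCNJ12, a potassium channel gene, had 0 reads in the R749H group and 120 in the wild-type group, which with a floor of 3 reads over the group is at least 22.8-fold lower. It has near-identical relatives, so its assignment is uncertain. YBX2, an RNA-binding protein of germ cells, had 2 reads in R749H and 129 in wild type, a ratio of 36.7 for reads pooled over the libraries. KCNJ12 and YBX2 were named for their size in this contrast and passed the filter only through the wild-type libraries. Their sizes are therefore a description. PMP22, a myelin protein gene, had 0.869 RPM in R749H replicate 1, 0 in the others, and 3.10 to 5.71 in wild type. Its log2 difference of -4.73 ± 0.82 depends on the prior count, since 3 libraries are at 0: it was -3.23 with a prior of 2, -6.48 with a prior of 0.1, -3.90 by edgeR and -5.56 without R749H replicate 1. On the long arm BZRAP1 (-3.44 ± 0.87, and -2.33 and -4.64 with priors of 2 and 0.1), the actin bundling gene FSCN2 (-3.35 ± 0.72, and -2.74 without R749H replicate 2) and the formin FMNL1 (-2.84 ± 0.79, and -1.59 without R749H replicate 3) were lowest. FSCN2 moved to -2.48 with a prior of 2 and -4.09 with 0.1, and BZRAP1 did not pass the filter on low counts when wild-type replicate 2, 3, 4 or 5 was left out. BZRAP1 and FSCN2 lie in the distal part, where lower values were not the rule.

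In the other direction TMEM88 (1.65 ± 0.39), the cation channel TRPV2 (1.43 ± 0.40) and the ATP-gated channel P2RX5 (1.13 ± 0.18) were highest on the short arm. P2RX5 had 40.9, 47.1, 43.4 and 42.2 RPM in R749H and 18.6, 19.6, 21.5, 20.2 and 18.9 in wild type, so each R749H library was above each wild-type library. On the long arm the melatonin synthesis enzyme AANAT (2.92 ± 0.54), the transcription factor ETV4 (1.91 ± 0.36) and the diacylglycerol kinase DGKE (1.75 ± 0.53) were highest. AANAT had 6.26, 5.20, 7.45 and 4.84 RPM in R749H and 0.320, 0.418, 1.47, 1.37 and 0.525 in wild type. TRPV2 was not called without R749H replicate 2 and DGKE not without R749H replicate 4 or wild-type replicate 3 or 4. ETV4 lies in the proximal part of the long arm and AANAT and DGKE in the distal part.

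The share of a gene's reads that ended downstream of its pooled median 3′ end does not use the gene's total and was tested. The question was whether the slow Pol II used other ends in these genes. Of 526 chromosome 17 genes tested by limma, 1 passed an adjusted p of 0.05, against 0.0766% of the 7831 genes of all chromosomes. At an unadjusted p below 0.05 by limma there were 50, or 9.51%, against 8.75% of all genes, with 32 shifted upstream in R749H and 18 downstream. The directions were 35 and 20 by edgeR, 21 and 18 with a mean of at least 50 reads, and 42 and 42 with genes divided at the midpoint of their ends. Of all 526 genes, 274 had a difference on the upstream side. No direction is read from the split, since the same split over all genes was not taken. In the stretch 3 of 16 genes, on the short arm 14 of 143, on the proximal long arm 16 of 182 and on the distal long arm 17 of 185 were below this unadjusted p. These shares are close to the background outside the stretch, and a difference between parts was not tested. The side on which the end at the median is counted was chosen after the first results were seen. With that end always counted as upstream, none of the 526 genes passed by limma and 55 were below the unadjusted p, against 0.0511% and 9.1% of all genes.

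RUNDC1, of the proximal long arm, was the gene that passed. The dominant ends on either side of its division are shown and had neither hexamer in the last 30 bases.
RUNDC1, upstream end (chr17:41144956-41144985, + strand): agcaagtaaacattcctctgctcacctccc
RUNDC1, downstream end (chr17:41145671-41145700, + strand): gcccatctgatccagatcaatatttttttg
The ends lie 1252 and 1967 nt from the stop codon. Neither end alone separated the groups. The upstream one held 11.1 to 60% of the RUNDC1 reads in R749H and 0 to 18.8% in wild type, and the downstream one 0 to 22.2% and 14.3 to 40%. All ends downstream of the division together held 27.8, 22.2, 14.3 and 33.3% of the RUNDC1 reads in R749H and 70.0, 67.9, 73.0, 64.6 and 74.0% in wild type. The groups were far apart, with a log2 odds difference of -2.76 ± 0.32 and an adjusted p of 0.0246 by limma. It rested on 9 to 50 reads per library. With the end at the pooled median always counted as upstream, the adjusted p by limma was 0.264 (log2 odds -1.69), with the division at the midpoint the difference was 0.11 (adjusted p 0.972), and 7 of the 9 fits without a library left it above 0.05.

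The next upstream shifts did not pass. APPBP2, an adaptor that binds the amyloid precursor protein and a distal gene, had a pair of clear poly(A) signals.
APPBP2, upstream end (chr17:58522829-58522858, - strand): attgtttttcAATAAAtattttgaaacatg
APPBP2, downstream end (chr17:58520520-58520549, - strand): ttattgacctAATAAAtatagtgttcctgc
The upstream end, 2113 nt from the stop codon, held 42.6, 50, 26.9 and 65% of its reads in R749H and 21.3, 15.2, 23.8, 12.5 and 17.5% in wild type. All ends downstream of its division together held 39.1 ± 14.2% in R749H and 72.2 ± 3.41% in wild type (SD, n = 4 and 5), and the adjusted p by limma was 0.227. GOSR2, a SNARE of the Golgi, had 28.7 ± 9.83% and 57.0 ± 5.18% downstream, with the same adjusted p of 0.227 by limma. Neither pair of groups overlapped.

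The downstream shifts with the smallest p were those of C1QTNF1 (adjusted p by limma 0.295), ZZEF1 (0.308) and PIP4K2B (0.308), none of which passed. PIP4K2B, a phosphoinositide kinase, had 23.0 ± 4.21% downstream in R749H and 8.33 ± 4.84% in wild type. Its dominant ends on either side are 3999 and 4001 nt from the stop codon, and those of C1QTNF1 1696 and 1699 nt, so these shifts are between ends 2 and 3 nt apart. edgeR, tested as an interaction of side and cell line, called RUNDC1 and EXOC7, a subunit of the exocyst. EXOC7, named after its values were seen, had 39.4 ± 4.89% downstream in R749H and 57.4 ± 4.64% in wild type without overlap, from 303 to 1200 reads per library, and an adjusted p of 0.227 by limma. Its total reads did not separate the groups (0.08 ± 0.16).

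**Figure D5:**
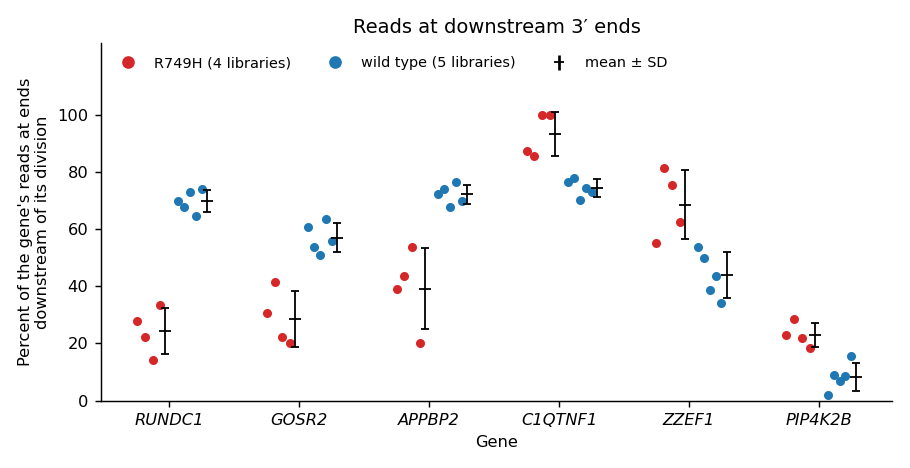
Percent of a gene's reads at 3′ ends downstream of its division, for the 3 genes with the smallest p in each direction, with points for the 4 R749H and 5 wild-type libraries and mean ± SD. R749H points lie below wild type for RUNDC1, GOSR2 and APPBP2 and above for C1QTNF1, ZZEF1 and PIP4K2B, and RUNDC1 alone passed the adjusted threshold.

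The features of the dominant ends are given by part, without a test between parts. The median distance from the stop codon was 720 nt on the short arm, 717 nt on the proximal long arm without the stretch, 790 nt on the distal long arm and 930.5 nt in the stretch, against 777 nt over all genes. The median gene had 11, 11, 13 and 10 isoforms in these parts, and its most used end took 63.2, 61.4, 57.9 and 46.6% of its reads. The stretch had the longest median distance and the lowest share at the most used end. ARHGDIA had the most isoforms, 90. AATAAA was present in 56.9% of dominant ends on the short arm and in 53.7% on the distal long arm.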

How the data were processed

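The deposited values are a signal: the reads at each 3′ end, which the authors had scaled so that every library totals 7 M poly(A) reads. Trimmed reads had been mapped to hg19 with bowtie (version not given in the sources used here), kept where they carried untemplated As, and assigned to stop codons up to 5 kb upstream. Whole reads were recovered by dividing by the value of 1 read (100% of values within 0.05 of a whole number), and reads were summed per gene. The authors' pooled tables were not used.

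Gene totals were fitted with limma (filterByExpr, TMM factors, log2 RPM with a prior count of 0.5), and shifts with limma on log2 odds with 0.5 reads added in proportion to depth, for genes averaging 20 or more reads at 2 or more isoforms. Both were adjusted by Benjamini-Hochberg over all genes. R 4.3.3, limma 3.58.1, edgeR 4.0.16, DESeq2 1.42.0 and Python 3.11.15 were used. In 5 simulations of 200 shifted genes, 21.4% of calls fell on unchanged genes when the median end was always counted upstream, as first run, and 6.87% when it was counted on the side that left both sides closest to equal, which was then used. That choice was made after the first results had been seen.

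The members and lists were chosen with earlier results of these data known. Named were all tested genes of the stretch, the 3 largest differences in each direction on each arm, the 3 smallest p of a shift in each direction, the 5 genes with the most reads, and the 2 most read genes of each list. CDK12, SUPT4H1, MED13, EXOC7, TOM1L1, COX11, MMD, HLF, UTP18, SNX11 and LRRC59 were named outside this rule, after their values were seen. The labels do not say whether replicates were separate cultures, and the methods call them biological replicates. Same-numbered libraries did not deviate together (correlations of -0.0705 to 0.0507), so they were not paired. The floor covers counting error only. Alternatives were other scalings, filters, priors, tools, thinned libraries, ends assigned to one gene, other divisions and each library left out. The limit of the comparison to genes before the gap, a minimum of 10% of reads on each side and the median end always upstream were added after the data had been seen.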

Additional observations from a re-analysis of the deposited data

Results flagged for a closer look

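A library was set apart where its gap to the nearest library of its group exceeded Dixon's 95% critical value. Over 148 groups of values 11 were set apart. Chance alone gives about 1 in 20 independent groups, but many of these groups share genes and libraries, so the tally cannot be set against that rate.

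Wild-type replicate 1, the shallowest library, accounted for 8 of the 11. All of these but ARHGDIA were values of parts of the chromosome that share genes, so they are not separate deviations. Its median log2 difference was -0.10 over the chromosome 17 set (other wild-type libraries 0.03 to 0.07), -0.10 over the set without the stretch (0.03 to 0.07) and -0.40 over the stretch (0.04 to 0.20). The median of the stretch minus that of the proximal part was -0.30 in this library (0.01 to 0.12). It gave 6.67% of its reads to chromosome 17 (6.21 to 6.29%), 6.54% to the set without the stretch (6.07 to 6.17%) and 4.31% to the proximal part (3.64 to 3.79%). Its ARHGDIA level was 916 RPM (1340.0 to 1494). The medians were thus low in a library whose share of reads on the chromosome was high. Without it the stretch median was -1.03 and that of the other chromosome 17 genes -0.41.

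R749H replicate 1 was the only R749H library with reads of YBX2 (0.348 RPM) and PMP22 (0.869 RPM), both on the short arm. It was also the deepest R749H library. R749H replicate 3 had an MRPL38 level of 445 RPM, against 663 to 697 in the other R749H libraries. A part of depth in these values was not tested.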

How the results depend on the processing

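The count of 236 called chromosome 17 genes (50 higher, 186 lower) stayed within 1.5 times under every alternative run, from 173 to 248 with a library left out, 239 by edgeR, 256 by DESeq2 and 216 with the replicate block. The main fit called 8.31% of the 602 tested genes higher and 30.9% lower, against 10.9 and 12.9% of all genes tested. The authors' scaling alone gave 328 (26 higher, 302 lower), so 7.93% of the calls were higher, not 21.2%. The stretch minus the rest was -0.65, and it moved to -0.41 with no filter on low counts and to -0.46 against genes up to the gap. The count of 1 shifted gene was 0 with a mean of at least 50 reads, with division at the midpoint, with thinned libraries, with the replicate block and with the median end always upstream (where 55 passed an unadjusted p of 0.05), 2 by edgeR, and 0 to 1 with a library left out. Without R749H replicate 2 the gene called was TMEM102, not RUNDC1. The RUNDC1 difference in log2 odds reversed to 0.11 with division at the midpoint. Of the alternatives for the totals of named genes, none reversed a call's direction, 867 moved a value by less than the spread between replicates and 31 by more. The cause of these changes was not tested. Same-numbered libraries share only a number. With the block, which leaves out wild-type replicate 5, ATP5G1, DGKE and TRPV2 were not called and XYLT2 and RPL38 were.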
